A study of Sus scrofa with 6 samples.

Results

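Immediate early genes are the genes that a cell transcribes within minutes of a stimulus, from RNA polymerase and transcription factors that are already in place. Here 10 of them were followed in the abdominal aorta of miniature pigs: the AP-1 subunit genes *FOS*, *FOSB*, *JUN*, *JUNB* and *ATF3*, the transcription factor genes *EGR1* and *NR4A1*, the nuclear protein gene *IER2*, and the feedback genes *DUSP1* and *ZFP36*. They were chosen by name from the 30477 genes of the deposited FPKM table. The table carries 8 of the names, and the other two were found by gene ID: *JUN* is listed as ENSSSCG00000031912 and typed as a pseudogene, and *IER2* as ENSSSCG00000013753 and typed as a lncRNA. The RNA-Seq series compared 3 male Wuzhishan pigs fed normal chow (NC) for 6 months with 3 male pigs of the same breed fed for as long a chow rich in fat, cholesterol and fructose (HFCF), with 1 RNA-Seq library per pig. The labels give an age of 3 to 4 months and the methods an older age at purchase, and all pigs were exsanguinated under anesthesia. FPKM counts fragments per length of exon and per number of mapped reads, so levels can be compared between genes.

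FOS and JUN family proteins pair through leucine zippers to form AP-1, which binds DNA downstream of the MAP kinases. Serum response factor (SRF) and its ELK and MRTF partners switch on *FOS*, *EGR1* and *JUNB* in smooth muscle and other cells. DUSP1 removes phosphate from the MAP kinases, and ZFP36 speeds the decay of AU-rich mRNAs, so both shut the response down. The same genes respond to stretch, cold, lack of oxygen and cutting of tissue, and the time between death and freezing is not given in the sources used here. For that reason the value of each pig is given.

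The low values of genes with 1 transcript step in units that gave depths of 1.09 and 1.38 in the second and the third NC pig and of 1.03 to 1.06 in the HFCF pigs, all relative to the first NC pig, and total read counts were not used here. The FPKM values summed to between 272207 and 287141 in the NC pigs and between 330222 and 338690 in the HFCF pigs. limma was fitted to log2(FPKM + 0.1) for the 15384 genes whose mean reached 0.1 FPKM, and a gene was called at a Benjamini-Hochberg adjusted p under 0.05 over all of them. The log2 fold change from NC to HFCF (log2FC) had a median of 0.32 over these genes, and of 0.00, -0.07 and 0.09 after median-ratio scaling, quantile normalization and rescaling to TPM. The methods house each pig alone and the sources used here name no litter, so p-values cover the spread between these pigs.

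Most of these immediate early genes were among the most abundant mRNAs of the aorta. Of the 10, 9 were within the 500 highest mean FPKM values of the table, led by *DUSP1* (rank 77) and *EGR1* (rank 97), while *ATF3* was at rank 1947. By the mean of each diet 8 were within that limit in the NC group and 9 in the HFCF group, *FOSB* being at rank 609 and 385. Of the 10 tested members 1 was called, *JUNB*, which was lower in the HFCF group. Among all tested genes 28.9% were called, 22.8% higher and 6.16% lower. The study thresholds were a ratio of group means above 2 or below 0.5 with an unadjusted p under 0.05. The methods name no test for that p, so the limma p was used here and the study's own list of genes may differ. These thresholds were passed by 0 members, against 25.5% of all tested genes (20.7% higher and 4.82% lower). In 2 members the unadjusted p in limma was under 0.05. The share of all tested genes at that p was not counted, and it includes the 28.9% called. The groups did not overlap in 3 members, against 48.2% of all tested genes. *DUSP1* and *ZFP36* were higher in every HFCF pig (36.1% of tested genes) and *JUNB* was lower in every HFCF pig (12.1% of tested genes). The median log2FC of the 10 members was 0.30, which is -0.02 relative to the median of all tested genes.

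**Figure D1:**
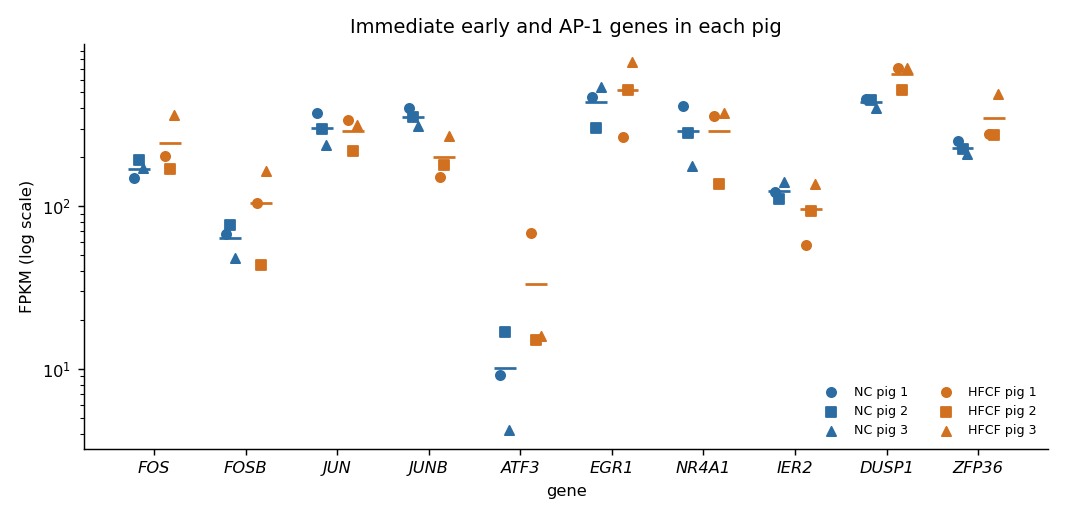
FPKM of each immediate early gene (x axis) in each pig on a log axis, NC in blue and HFCF in orange, with the shape giving the pig number and the bar the group mean. *JUNB* lay at 309.5 to 403.0 FPKM in the NC pigs and at 152 to 272 FPKM in the HFCF pigs, while the groups overlapped in 7 of the 10 genes.

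Among the AP-1 subunits, *FOS* (ENSSSCG00000002383), the inducible partner that needs a JUN protein to bind DNA, was at 148, 192 and 171 FPKM in the NC pigs and at 204, 168 and 362 FPKM in the HFCF pigs. The second HFCF pig lay inside the NC range, and the third stood above all others. The group means were 170 ± 21.8 and 245 ± 103 FPKM (SD, n = 3 each), with log2FC 0.45 (95% interval -0.23 to 1.14, adjusted p = 0.275, limma). It was 0.13 without the third HFCF pig and 0.68 without the second. *FOSB* (ENSSSCG00000031616), a close relative of *FOS*, was at 67.1, 76.6 and 48.4 FPKM in the NC pigs and at 105, 43.8 and 165 FPKM in the HFCF pigs. Here too the second HFCF pig was the lowest of its group, and it was below all NC pigs. Its log2FC was 0.54 with an interval of -0.55 to 1.62 (adjusted p = 0.414, limma), and it ranged with the pig left out from 0.11 (the third HFCF pig) to 1.06 (the second HFCF pig, adjusted p = 0.051, limma), with 0.35 without the third NC pig. The ratio of *FOS* to *FOSB* overlapped between the groups, at 2.21 to 3.52 in the NC pigs and 1.94 to 3.85 in the HFCF pigs.

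*JUN*, which can bind DNA as a pair with itself, was at 376.5, 298.7 and 236.5 FPKM in the NC pigs and at 337.5, 217.0 and 317.8 FPKM in the HFCF pigs. The values of the diets were interleaved, with a log2FC of -0.06 (interval -0.64 to 0.51, adjusted p = 0.865, limma) whose sign turned without the first NC pig (0.10) or the second HFCF pig (0.13). *ATF3* (ENSSSCG00000015595), a stress-induced factor that represses many AP-1 and CREB targets, was at 9.23, 16.9 and 4.19 FPKM in the NC pigs and at 68.1, 15.1 and 15.9 FPKM in the HFCF pigs. The second NC pig exceeded 2 of the HFCF pigs, and the first HFCF pig stood far above the rest. The log2FC of 1.54 was the largest of the members and the least certain, with an interval of -0.10 to 3.18 (adjusted p = 0.139, limma). Without the first HFCF pig it was 0.83 (adjusted p = 0.318, limma), and without the third NC pig 1.02 (adjusted p = 0.336, limma).

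*JUNB* (ENSSSCG00000013735), a weaker activator than JUN that often opposes it, was at 403.0, 351.7 and 309.5 FPKM in the NC pigs and at 152, 179 and 272 FPKM in the HFCF pigs. Every HFCF pig was below every NC pig, with the third HFCF pig the closest to the NC range. The mean fell from 355 ± 46.8 to 201 ± 62.8 FPKM (SD, n = 3 each), which was -0.855 as log2FC (standard error 0.24, interval -1.42 to -0.29, adjusted p = 0.0368, limma). The change lay -1.18 from the median of all tested genes. It kept its direction in 15 of 15 alternatives, from -1.21 to -0.68, and its adjusted p (limma) lay between 0.0123 and 0.127. The call was lost without the first, the second or the third NC pig (adjusted p = 0.127, 0.0907 and 0.0588, limma) and without the first or second HFCF pig (adjusted p = 0.0881 and 0.108, limma). It was also lost without a filter on low values and without an eBayes trend (adjusted p = 0.0648 and 0.0594, limma), and it stood in 7 of the 15 alternatives, the 3 scalings among them.

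**Figure D2:**
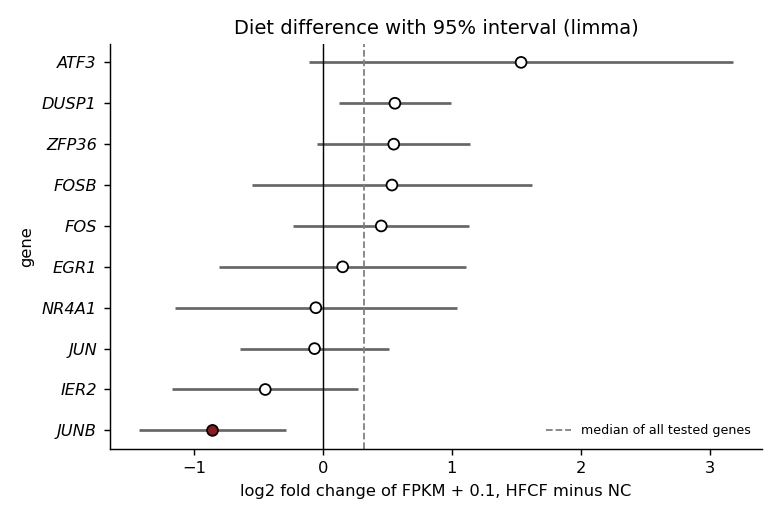
Log2 fold change of FPKM + 0.1, HFCF minus NC, with the 95% interval of limma for each of the 10 genes, where the filled point is the called gene and the dashed line the median of all tested genes. The interval lay below 0 for *JUNB* and above 0 for *DUSP1* (0.13 to 0.99), and it included 0 for the other 8 genes.

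Within a library, a ratio of 2 genes does not depend on how the library was scaled. *FOS* per *JUNB* was 0.368, 0.545 and 0.551 in the NC pigs against 1.34, 0.942 and 1.33 in the HFCF pigs, and *JUN* per *JUNB* was 0.934, 0.849 and 0.764 against 2.22, 1.21 and 1.17. JUNB mRNA thus exceeded both partners in every NC pig and no longer exceeded JUN in any HFCF pig. Over the 45 pairs of members the groups did not overlap in 13, and 7 of these were among the 9 pairs with *JUNB*. The clearest was *ZFP36* per *JUNB*, at 0.624 to 0.679 in the NC pigs and 1.52 to 1.83 in the HFCF pigs. Each such ratio reached p = 0.1 in an exact two-sided permutation test, which is the smallest that 3 pigs against 3 allow, and 0.346 after adjustment over the 45 pairs. The 9 pairs share the *JUNB* values and are not independent. As *JUNB* was itself lower in every HFCF pig, a gene unchanged by diet would also come out higher per *JUNB* there. The share of all tested genes without overlap per *JUNB* was not counted, so nothing is read from the counts of pairs.

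Contractile smooth muscle, the main cell of the media, was represented by 8 markers (*ACTA2*, *MYH11*, *TAGLN*, *CNN1*, *SMTN*, *LMOD1*, *MYOCD* and *DES*). Of these, 6 were called lower and 0 higher in the HFCF group, with *TAGLN* and *LMOD1* not called. Their summed level was 22730, 18250 and 15910 FPKM in the NC pigs and 7997, 9537 and 12890 FPKM in the HFCF pigs. *JUNB* followed the same order over all 6 pigs, which 0.494% of tested genes did. Per 1000 FPKM of the 8 markers *JUNB* was at 17.7, 19.3 and 19.4 FPKM in the NC pigs and 19.0, 18.8 and 21.1 FPKM in the HFCF pigs, so the groups overlapped. The highest of these 6 values was 1.19 times the lowest, and 2 of the 15384 tested genes, *JUNB* and *PPP1R12C*, varied that little or less. Leaving out any 1 marker kept the overlap except for *TAGLN*, without which the NC pigs were at 24.7 to 27.1 and the HFCF pigs at 27.2 to 32.7. *ACTA2* and *TAGLN* (NC means of 7618 and 5283 FPKM) made up most of the sum. Leaving out a low marker such as *MYOCD* (44.6 FPKM) could hardly move it. The HFCF mean over the NC mean was 0.57 for *JUNB*, and from 0.15 (*MYOCD*) to 0.67 (*TAGLN*) for the markers. The even ratio thus holds for the sum and not for each marker. The ratio to the markers was formed after the values had been seen. The summed macrophage markers were at 50.7, 50.1 and 62.2 FPKM in the NC pigs and 1960, 886 and 752 FPKM in the HFCF pigs. That is the reverse of the *JUNB* order except between the first and second NC pigs, so the order is not particular to smooth muscle. The part of smooth muscle or of macrophages in the fall of *JUNB* was not tested. In bulk tissue, fewer cells of a type and less RNA per cell cannot be told apart.

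**Figure D3:**
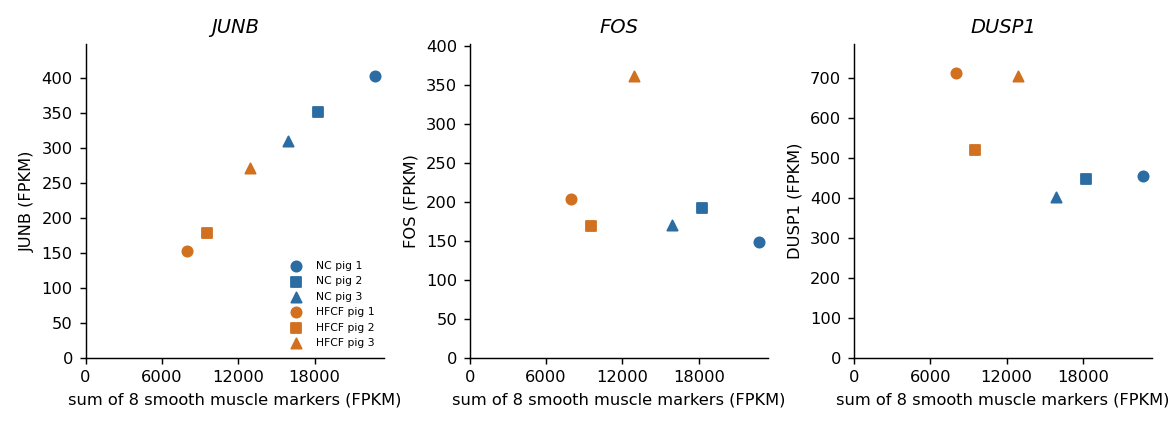
FPKM of *JUNB*, *FOS* and *DUSP1* (y axes, from 0) against the summed FPKM of 8 smooth muscle markers (x axes) in each pig, NC in blue and HFCF in orange, with the shape giving the pig number. *JUNB* rose with the marker sum from 152 FPKM at 7997 to 403 FPKM at 22730, while *FOS* and *DUSP1* did not follow that order.

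No other member had the order of the smooth muscle marker sum over all 6 pigs. The ratio of *IER2* to the sum varied least among them, its highest value being 2.0 times its lowest. Of all tested genes 4.92% varied that little or less. Per 1000 FPKM of the same markers the HFCF pigs lay above all NC pigs in *FOS* (17.7 to 28.1 against 6.52 to 10.7 FPKM) and *JUN* (22.8 to 42.2 against 14.9 to 16.6 FPKM). *FOSB*, *ATF3*, *DUSP1* and *ZFP36* also did not overlap on that scale, whereas *EGR1*, *NR4A1* and *IER2* overlapped. The marker sum itself was lower in every HFCF pig, and 61.8% of all tested genes were higher in every HFCF pig on that scale, so nothing is read from these counts.

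Among the other transcription factors, *EGR1* (ENSSSCG00000014336), a zinc finger factor of injured and stretched vessels, was at 470.0, 302 and 542 FPKM in the NC pigs and at 267.8, 517.2 and 765.5 FPKM in the HFCF pigs. The HFCF pigs held both the lowest and the highest value. The log2FC was 0.15 (interval -0.80 to 1.11, adjusted p = 0.801, limma), and its sign turned with each of the 3 scalings (-0.23 to -0.11) and without the second NC pig (-0.09) or the third HFCF pig (-0.19). *NR4A1* (ENSSSCG00000031321), an orphan nuclear receptor, was at 413, 282 and 176 FPKM in the NC pigs and at 358, 136 and 374 FPKM in the HFCF pigs. The values were mixed between the diets, and the log2FC of -0.05 (interval -1.15 to 1.04, adjusted p = 0.94, limma) turned positive without the first NC pig (0.24) or the second HFCF pig (0.42). *IER2* was at 121.6, 110.4 and 141.5 FPKM in the NC pigs and at 58.0, 93.8 and 138 FPKM in the HFCF pigs. The first and second HFCF pigs were below all NC pigs and the third was inside their range, a log2FC of -0.45 (interval -1.17 to 0.27, adjusted p = 0.307, limma) that was -0.12 without the first HFCF pig and -0.75 without the third. These intervals leave room for a difference of 2-fold or more in one direction or the other, so these data do not show that the 3 genes were alike on the diets.

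The feedback genes were higher in every HFCF pig, yet neither was called. *DUSP1* (ENSSSCG00000016991) was at 456, 447 and 402 FPKM in the NC pigs and at 712, 521 and 704 FPKM in the HFCF pigs. The means were 435 ± 29.0 and 646 ± 108 FPKM (SD, n = 3 each), a log2FC of 0.56 (standard error 0.18, adjusted p = 0.0587, limma) that was called with a filter of mean FPKM of at least 1 (adjusted p = 0.0476, limma) and in none of the other 14 alternatives (adjusted p up to 0.546, limma). *ZFP36* (ENSSSCG00000028056) was at 251.5, 225.0 and 210.3 FPKM in the NC pigs and at 279, 272 and 492 FPKM in the HFCF pigs. The third HFCF pig stood above the others, and the log2FC was 0.55 (standard error 0.25, adjusted p = 0.143, limma) and 0.27 without that pig. After each of the 3 scalings the groups overlapped in both genes, and they lay 0.24 and 0.23 above the median of all tested genes on the log2 scale.

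In the members the HFCF pigs differed from each other more than the NC pigs did. The highest over the lowest value within a group had a median of 1.44 over the members in the NC pigs and 2.26 in the HFCF pigs, and the range was wider among the HFCF pigs in 9 of the 10 genes, *JUN* being the exception. Over all tested genes these medians were 1.46 and 1.53. Over the 1947 tested genes at or above the mean FPKM of *ATF3*, the lowest member, they were 1.29 and 1.34. The third HFCF pig had the highest value of its group in 7 members and the lowest in 0, and the second had the lowest in 7 and the highest in 0. Among the NC pigs the third had the lowest value of its group in 7 members and the highest in 2. The first NC pig had the highest in 5 and the lowest in 1. Relative to the NC mean, the median member was 0.28 in the first HFCF pig, -0.20 in the second and 0.77 in the third on the log2 scale, against 0.36, 0.33 and 0.29 for all tested genes. Without the second HFCF pig the groups did not overlap in 5 members, *FOS* and *FOSB* being added, against 55.2% of all tested genes with the same pig left out. Without the third HFCF pig (*IER2* added, 57.2% of tested genes) or the second NC pig (*ATF3* added, 54.9%) it was 4 members, and it stayed at 3 without any other pig. The median log2FC of the members was 0.55 without the second HFCF pig and -0.02 without the third.

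**Figure D4:**
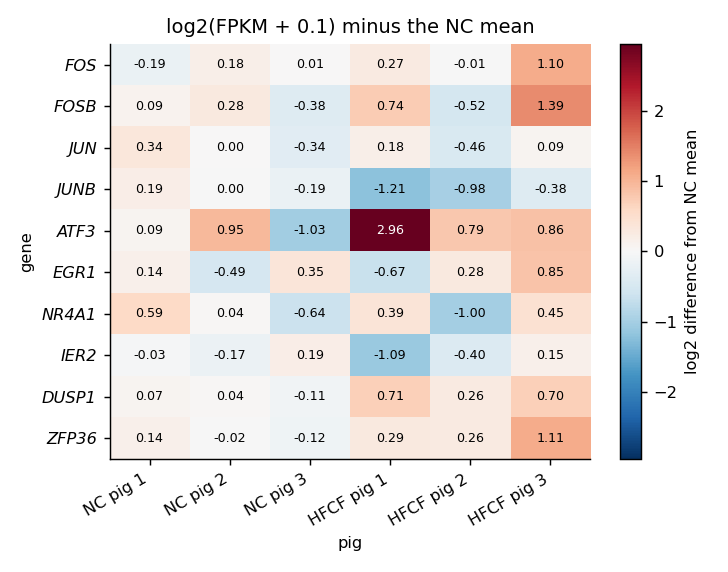
Log2(FPKM + 0.1) of each member in each pig minus the mean of the NC pigs, printed in the cells and coloured from blue (lower) to red (higher). The third HFCF pig was above the NC mean in 9 genes and the second in 4, and *ATF3* in the first HFCF pig had the largest difference (2.96).

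Relatives of the members and the genes around them were taken as lists, without a test of the lists. The remaining AP-1 partners, 14 genes of which 12 were tested, held 5 called higher and 2 called lower, with a median log2FC of 0.51. *BATF3*, an AP-1 factor of dendritic cells, rose from 0.197 ± 0.0504 to 2.40 ± 0.163 FPKM (SD, n = 3 in each group), with log2FC 3.08 (adjusted p = 0.000937, limma). *MAF*, a bZIP factor of macrophages and lymphocytes, rose from 0.797 ± 0.188 to 5.28 ± 2.16 FPKM, and *ATF2*, a kinase-regulated partner of JUN, from 0.656 ± 0.122 to 2.90 ± 1.22 FPKM (adjusted p = 0.0033 and 0.00837, limma). The called genes that were lower were *FOSL2* (96.3 ± 8.44 to 49.0 ± 18.6 FPKM) and *MAFK* (32.6 ± 2.33 to 16.9 ± 5.29 FPKM), named after their values were seen. *FOSL2* per *FOS* was 0.496 to 0.710 in the NC pigs and 0.103 to 0.345 in the HFCF pigs (p = 0.1, exact permutation test). Without the first or the second NC pig 3 of the 12 genes were called, and without the third pig of either group 4. Calls over all tested genes also fell, from 28.9% to 15.6% and 18.7% without those NC pigs. Without the third pig of either group they were 22.8%.

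The upstream list of MAP kinases, SRF, ELK, MRTF and CREB genes held 16 tested genes, 3 called higher and 3 lower. Of all tested genes 22.8% were called higher and 6.16% lower. *RPS6KA1*, a kinase below ERK, rose from 1.24 ± 0.259 to 12.9 ± 7.08 FPKM (adjusted p = 0.00217, limma). *MAPK3*, which encodes ERK1, fell from 138 ± 16.6 to 73.5 ± 7.94 FPKM, and *SRF* fell from 56.5 ± 10.9 to 27.0 ± 4.49 FPKM (adjusted p = 0.00747 and 0.0103, limma). *MAPK3*, *SRF* and the called *MRTFA* (36.0 ± 1.92 to 22.3 ± 2.23 FPKM) were all lower in each HFCF pig. Over the list 4 genes were lower and 4 higher in every HFCF pig, against 12.1% and 36.1% of all tested genes. The calls of *RPS6KA1*, *MAPK3* and *SRF* stood in 15 of 15 alternatives.

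Of 16 tested feedback genes outside the members, 2 were called higher and 1 lower, against 22.8% and 6.16% of all tested genes. The median log2FC of the list was -0.38 relative to the median of all tested genes. *ZFP36L2*, a relative of *ZFP36* that also binds AU-rich mRNAs, rose from 33.4 ± 4.48 to 108 ± 4.47 FPKM (log2FC 1.69, adjusted p = 0.000903, limma). *NAB1*, a corepressor of the EGR factors, rose from 3.62 ± 0.892 to 9.38 ± 0.115 FPKM, and *SPRED2*, an inhibitor of the RAS to ERK route, fell from 9.03 ± 1.78 to 3.05 ± 0.703 FPKM (adjusted p = 0.00566 and 0.00527, limma). *ZFP36L2* per *ZFP36* was 0.113 to 0.178 in the NC pigs and 0.211 to 0.404 in the HFCF pigs (p = 0.1, exact permutation test).

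The list of other immediate early genes held 27 tested genes, 5 called higher and 3 called lower, with a median log2FC of -0.02. *NFKBIZ*, a nuclear regulator of NF-kB targets, rose from 11.9 ± 2.32 to 36.1 ± 10.3 FPKM, and *EGR2* from 2.46 ± 0.664 to 7.74 ± 2.89 FPKM (adjusted p = 0.00545 and 0.0109, limma). *EGR3* rose from 0.499 ± 0.0693 to 2.97 ± 2.25 FPKM (adjusted p = 0.0184, limma), a call that was lost with quantile normalization and without the first or second NC pig (adjusted p = 0.0573, 0.0686 and 0.0599, limma). *EGR2* per *EGR1* was 0.00480 to 0.00635 in the NC pigs and 0.00773 to 0.0413 in the HFCF pigs, and *EGR3* per *EGR1* was 0.00101 to 0.00148 and 0.00193 to 0.0208 (p = 0.1 each, exact permutation test, and 0.14 after adjustment over 7 ratios of relatives). The EGR relatives were thus far below *EGR1* in level in every pig. Both were themselves higher in every HFCF pig, so no further diet difference is read from their ratios. Without the first or second NC pig 2 and 3 genes of the list were called, and without the second HFCF pig 4. Over all tested genes 15.6%, 18.7% and 19.1% were called in these settings, against 28.9% with all pigs.

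The target genes of AP-1 and EGR1 held 16 tested genes, 3 called higher and 3 lower. *MMP9*, a gelatinase, was at 0 to 0.411 FPKM in the NC pigs and at 31.1, 8.38 and 2.17 FPKM in the HFCF pigs (adjusted p = 0.0102, limma). *PDGFA*, a smooth muscle mitogen, fell from 6.64 to 8.69 FPKM in the NC pigs to 4.04 to 4.61 FPKM in the HFCF pigs (adjusted p = 0.0161, limma), and without the first NC pig its adjusted p was 0.0564 in limma. Leaving out 1 pig brought the called genes of this list down to 1 without the first NC pig, 2 without the second and 3 without the first or the third HFCF pig. Over all tested genes the share called fell from 28.9% to 15.6%, 18.7%, 23.2% and 22.8% in the same settings.

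ZFP36 target mRNAs held 6 tested genes of 9, 2 called higher and 0 lower. *VEGFA*, the endothelial growth factor, rose from 6.67 ± 0.996 to 18.6 ± 5.79 FPKM (adjusted p = 0.00995, limma). *IL10*, an anti-inflammatory cytokine, was at 0.0256 to 0.0365 FPKM in the NC pigs and at 2.59, 1.19 and 0.273 FPKM in the HFCF pigs (adjusted p = 0.0183, limma). Its call was lost with a pseudocount of 1, without any one NC pig and without the second HFCF pig (adjusted p from 0.0515 to 0.0653, limma), and each of these settings left 1 called gene in the list. Over all tested genes 15.6% to 27.6% were called in these settings, against 28.9%. *CSF2* and *IL2* were listed at 0 in all pigs.

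**Figure D5:**
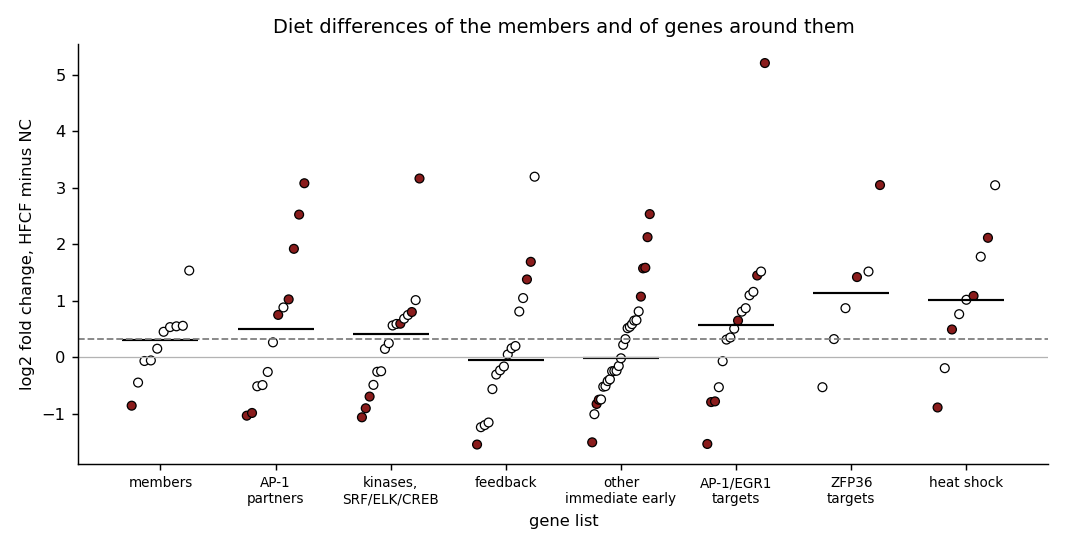
log2FC (HFCF minus NC) of each tested gene of the members and of 7 lists, filled where called, with the median of each list as a bar and the median of all tested genes as a dashed line. Called genes made up 1 of the 10 members, between 3 of 16 (feedback genes) and 7 of 12 (AP-1 partners) of each list, and 28.9% of all tested genes.

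Heat shock genes, which also respond to the handling of tissue, held 9 tested genes, 3 called higher and 1 lower, with 8 at an unadjusted p under 0.05 in limma. The share of all tested genes at that unadjusted p was not counted, and it includes the 28.9% called. *HSPE1*, a mitochondrial chaperonin, rose from 15.1 ± 3.10 to 65.1 ± 8.15 FPKM (adjusted p = 0.00111, limma). *HSPB1*, a small heat shock protein, rose from 269.9 ± 77.5 to 558 ± 40.7 FPKM (adjusted p = 0.0164, limma), and the call was lost with median-ratio scaling, quantile normalization and without the second HFCF pig (adjusted p = 0.0736, 0.0514 and 0.0537, limma). *BAG3*, a co-chaperone of stretched muscle, fell from 104 ± 28.4 to 55.4 ± 10.3 FPKM (adjusted p = 0.0279, limma), and the call was lost without the first or second NC pig or the first or second HFCF pig (adjusted p from 0.0597 to 0.0871, limma) and without an eBayes trend (adjusted p = 0.0503, limma), and it stood in 9 of 15 alternatives. The stress-inducible *HSPA6* and *DNAJB1*, named after their values were seen, set the first HFCF pig apart. *HSPA6* was at 0.883 to 1.35 FPKM in the NC pigs and at 104, 4.28 and 2.24 FPKM in the HFCF pigs, and *DNAJB1* was at 18.4 to 21.6 FPKM and at 213, 37.1 and 42.3 FPKM. The first HFCF pig was also the one with the highest *ATF3*, but its *EGR1*, *JUNB* and *IER2* were the lowest of all 6 pigs. Without 1 pig the list held 2 called genes (first or second NC pig) or 1 (second HFCF pig). Calls over all tested genes fell from 28.9% to 15.6%, 18.7% and 19.1% without these pigs in turn. The part of tissue handling in these values was not tested.

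Markers of other cells differed by cell type in how many were called. All 10 macrophage markers were called higher, with summed levels of 50.1 to 62.2 FPKM in the NC pigs and 752 to 1960 FPKM in the HFCF pigs, the highest in the first HFCF pig. Red blood cell markers summed to 22.1 to 180.3 FPKM in the NC pigs and to 2906, 86.8 and 95.7 FPKM in the HFCF pigs, with 0 of 4 called and 0 at an unadjusted p under 0.05 in limma. Neutrophil markers summed to 0.474 to 2.21 and 5.40 to 94.4 FPKM, with 1 of 3 called higher. Of the T cell markers 2 of 7 were called higher and of the B and plasma cell markers 1 of 6. Endothelial markers had 0 of 7 called and 2 at an unadjusted p under 0.05 in limma. Fibroblast markers had 1 of 6 called higher and adipocyte markers 1 of 6 called lower. Skeletal muscle and Schwann cell markers had 0 of 4 called each, and 1 each at an unadjusted p under 0.05 in limma. Of all tested genes 28.9% were called, and the share at that unadjusted p was not counted but includes these. The part of these cells in the levels of the immediate early genes was not tested.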

How the data were processed

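Abdominal aorta RNA of 3 NC and 3 HFCF pigs was sequenced, with 1 library per pig. Per the methods and labels, the authors trimmed reads with cutadapt 1.9, aligned them with HISAT2 and assembled them with StringTie; the deposited FPKM values of 30477 genes were used, with 0.0001 read as 0. As FPKM values depend on what else each library holds, scalings were tried as alternatives. Strand and annotation release are not given in the sources used here. The methods name an earlier genome build than the reference table, so no coordinates are given, and no sequences, motifs or protein comparisons were used here.

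Values were fitted as log2(FPKM + 0.1) with limma 3.58.1 in R 4.3.3 (a diet term alone, trended eBayes) over 15384 genes. The members and lists were chosen with earlier results of these data known. In each list the 3 called genes with the smallest adjusted p were named, except 1 that is not reported here. Of 116 list genes, 102 were in the table, matched by name, by gene ID or, for *JUND*, by description. Marker lists covered vessel wall cells (smooth muscle, endothelium, fibroblasts), blood and immune cells (macrophages, neutrophils, T cells, B and plasma cells, red blood cells) and neighbouring tissue (adipocytes, Schwann cells, skeletal muscle). Ratios between genes and to markers were added after the values were seen. Alternatives were pseudocounts of 1 and 0.01, other filters and scalings, no trend, a replicate block and each pig left out. On simulated data of 15384 genes with 200 changed for the HFCF and NC comparison, 77 of 100 genes changed by 2 on the log2 scale were called and 21 of 100 changed by 1, with 5 false calls. In the real data 28.9% of tested genes were called, far more than the share changed in the simulation. The Benjamini-Hochberg cutoff depends on that share, so these counts do not give the sensitivity in the real data.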

Additional observations from a re-analysis of the deposited data

How the results depend on the processing

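Of the 10 members 1 was called, and the count was 0 with no filter on low values, 0 with eBayes without a trend, 0 with the replicate block and 2 with a mean FPKM of at least 1 (*JUNB* and *DUSP1*). Of all tested genes 28.9% were called, and 17.2%, 26.9%, 18% and 35% in these settings in turn. With each pig left out 0 to 1 members were called, against 15.6% to 23.2% of all tested genes. The number past the study thresholds was 0, and it was 1 with median-ratio scaling, 1 with quantile normalization and 1 with rescaling to TPM (*JUNB* each time), 1 with the replicate block (*ATF3*) and 0 to 2 with each pig left out. Members without overlap numbered 3, and 1 with median-ratio scaling, 1 with quantile normalization, 1 with rescaling to TPM (*JUNB* each time) and 3 to 5 with each pig left out. Of all tested genes 48.2% did not overlap, and 46.8%, 45.2% and 45.6% with these scalings. With each pig left out that share was 53.1% to 57.4%. The called genes of the 7 pathway lists numbered 36 of 98, and 17 to 30 with each pig left out, the lowest without the first NC pig and 20 without the second. The median log2 fold change of the members was -0.05 with median-ratio scaling, -0.03 with quantile normalization and 0.04 with rescaling to TPM. The sign of *JUN* turned without the first NC pig (0.10) and the second HFCF pig (0.13), and that of *NR4A1* without the same pigs (0.24 and 0.42). The sign of *EGR1* turned with quantile normalization (-0.23), median-ratio scaling (-0.20) and TPM (-0.11), and without the second NC pig (-0.09) or the third HFCF pig (-0.19). With each pig left out, *EGR1* ranged from -0.19 to 0.57 and *NR4A1* from -0.37 to 0.42. Same-numbered pigs of the 2 groups had deviations that correlated at 0.02, -0.08 and -0.07, so the numbers do not pair the pigs. The replicate block moved the calls of all genes from 4453 to 2772 (2399, 2879 and 2936 without the first NC, the second NC or the second HFCF pig), and under the block *JUNB* had an adjusted p of 0.0903 (limma). Counts over the 8 members matched by name, added after seeing the data, were 1, 0 and 3, with a median of 0.49. The cause of these changes was not tested. Relative depth is all that the FPKM steps give, and 3 pigs per group limit the precision.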

Other observations

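The 5 genes whose centred log2 values over the 6 pigs lay nearest to the mean profile of the 10 members, among 9577 genes with a symbol and a mean FPKM of at least 1, were *PGLS*, *ALKBH4*, *USP54*, *PEG10* and *MAN1C1*. Their root mean square distances were 0.08, 0.11, 0.11, 0.12 and 0.12 on the log2 scale. The members themselves lay between 0.21 (*DUSP1*) and 1.09 (*ATF3*) from their own mean profile. *PGLS*, an enzyme of the pentose phosphate pathway, was at 4.72, 4.47 and 3.60 FPKM in the NC pigs and at 5.49, 4.07 and 7.74 FPKM in the HFCF pigs. These genes were picked for this order over the pigs, which is therefore no finding, and *PGLS* was not called (adjusted p = 0.303, limma).

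Among pairs of members without *JUNB*, for which no share over all pairs of genes was counted, the groups did not overlap in 6 of 36. *IER2* was in 4 of these, low against *DUSP1* (0.247 to 0.352 in the NC pigs and 0.0815 to 0.196 in the HFCF pigs), *ZFP36*, *FOS* and *EGR1*. *JUN* per *DUSP1*, a transcription factor and a phosphatase of the kinases that activate it, was 0.589 to 0.826 in the NC pigs and 0.416 to 0.474 in the HFCF pigs (p = 0.1, exact permutation test, and 0.346 after adjustment over 45 pairs). *FOSB* per *NR4A1* was 0.163 to 0.275 and 0.293 to 0.442. As *DUSP1* and *ZFP36* were themselves higher in every HFCF pig, a gene unchanged by diet could also come out low against them. Nothing is read from these pairs of members. Of 7 ratios between a member and a relative in the lists, *DUSP2* per *DUSP1* also did not overlap, at 0.000284 to 0.00149 in the NC pigs and 0.00216 to 0.0301 in the HFCF pigs, while *JUND* per *JUN* and *NR4A2* per *NR4A1* overlapped. *DUSP2* was itself higher in every HFCF pig, so nothing further is read from its ratio.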
